A study of Mus musculus with 41 samples.

Results

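The segments described here are the variable (V) segments of the immunoglobulin genes, as counted by RNA sequencing of bone from 41 mice. The members were the rows annotated as IG_V_gene that held 410 or more counts summed over all mice, which gave 76 of the 43346 rows of the count table. All 76 were heavy chain segments (Ighv); a further 15 rows of that annotation fell below the minimum. The kappa segments (Igkv) carried the annotation IG_LV_gene instead, and 87 of 98 such rows reached the same minimum, so they are reported beside the heavy members as a second class. The members closest to the minimum were Ighv1-23 with 554 counts and Ighv1-62-1 with 571 counts, and the closest rows left out were Ighv15-2 with 401 counts and Ighv1-43 with 261 counts.

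The tissue was the shaft of the tibia after centrifugation to drive out the marrow. Every mouse was a female INK-ATTAC animal on the C57BL/6 background, carrying a transgene under the p16Ink4a promoter whose product kills p16-expressing cells when the drug AP20187 (AP) is given. The 12 young mice were 6 months old in the methods of the study and 6 to 12 months in the sample labels. The labels give no treatment for the young mice. Age and the course of injections may thus differ together in comparisons with them. The 13 old + vehicle mice and the 16 old + AP mice (10 mg/kg of AP on 2 days a week) were treated for 4 months from 20 months of age, and so were 24 months old at the end. All groups carry the transgene, and its promoter limits clearance to cells that express it. Mice are separate animals, so the spread is between animals.

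Each B cell joins 1 of many V segments of the heavy chain locus to short D and J segments, and 1 V segment of a light chain locus (kappa or lambda) to a J segment. The choice is made mainly in the bone marrow of the adult and is passed on to the descendants of that cell, although a light chain can still be replaced while the cell develops. A mixed population of B cells and plasma cells therefore transcribes many segments side by side, while a population that descends from few cells transcribes few. Plasma cells carry far more immunoglobulin RNA than resting B cells do. In bulk tissue, fewer cells of a type and less RNA per cell cannot be told apart, and a share of V counts is a share of RNA, not of cells.

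The heavy members span chr12:113578504-115446869 of GRCm38, have lengths of 347 to 480 bases (median 353) in the count table and fall into 14 families named by their first number. The kappa segments span chr6:67555636-70704177 and fall into 17 families. The 4 heavy segments below are shown because they were the segments on which the counts of single mice were concentrated (Ighv1-53, Ighv1-9 and Ighv8-5) or the segment with the highest mean share in young mice (Ighv3-6). Each is the 3′ part of the V exon, read from GRCm38 on the coding strand with the GENCODE vM21 annotation, from 210 bases before the conserved second cysteine codon to the end of the segment. Capitals mark that cysteine codon, after which the join to D and J lies. Ighv3-6 is chr12:114288157-114288372, Ighv1-53 is chr12:115158403-115158621, Ighv1-9 is chr12:114583569-114583787 and Ighv8-5 is chr12:115067560-115067782, all on the minus strand.
Ighv3-6: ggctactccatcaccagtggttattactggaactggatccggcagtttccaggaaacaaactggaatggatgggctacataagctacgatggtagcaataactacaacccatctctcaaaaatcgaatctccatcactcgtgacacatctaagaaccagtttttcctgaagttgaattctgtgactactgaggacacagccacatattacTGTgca
Ighv1-53: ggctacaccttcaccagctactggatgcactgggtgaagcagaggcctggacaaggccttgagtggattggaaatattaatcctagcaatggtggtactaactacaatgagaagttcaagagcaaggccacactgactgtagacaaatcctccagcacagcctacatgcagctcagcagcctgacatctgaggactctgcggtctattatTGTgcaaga
Ighv1-9: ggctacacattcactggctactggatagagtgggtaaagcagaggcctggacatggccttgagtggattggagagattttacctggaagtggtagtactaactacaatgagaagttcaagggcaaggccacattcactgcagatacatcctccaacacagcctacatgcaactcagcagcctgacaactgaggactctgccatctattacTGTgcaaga
Ighv8-5: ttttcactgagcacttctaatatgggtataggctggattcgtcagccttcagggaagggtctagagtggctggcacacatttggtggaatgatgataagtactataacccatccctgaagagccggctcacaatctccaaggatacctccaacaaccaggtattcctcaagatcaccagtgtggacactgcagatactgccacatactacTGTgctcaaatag

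The 4 kappa segments below were chosen in the same way. Igkv1-110 had the highest mean kappa share in young mice, and the other 3 were the largest kappa segment of the mice in which Ighv1-53, Ighv1-9 and Ighv8-5 were most concentrated. Igkv1-110 is chr6:68271032-68271267 and Igkv13-84 is chr6:68939832-68940067, both on the plus strand, as is Igkv1-135 at chr6:67610273-67610508. Igkv4-57 is chr6:69575975-69576212 on the minus strand.
Igkv1-110: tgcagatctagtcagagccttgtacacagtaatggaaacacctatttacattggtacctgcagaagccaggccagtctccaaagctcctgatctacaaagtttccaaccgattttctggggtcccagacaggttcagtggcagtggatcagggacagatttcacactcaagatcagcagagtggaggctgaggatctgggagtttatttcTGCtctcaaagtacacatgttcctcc
Igkv4-57: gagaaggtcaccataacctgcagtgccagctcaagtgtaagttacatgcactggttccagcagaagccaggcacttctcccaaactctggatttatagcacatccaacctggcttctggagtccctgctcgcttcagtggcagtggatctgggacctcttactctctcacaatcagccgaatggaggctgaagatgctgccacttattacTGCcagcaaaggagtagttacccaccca
Igkv13-84: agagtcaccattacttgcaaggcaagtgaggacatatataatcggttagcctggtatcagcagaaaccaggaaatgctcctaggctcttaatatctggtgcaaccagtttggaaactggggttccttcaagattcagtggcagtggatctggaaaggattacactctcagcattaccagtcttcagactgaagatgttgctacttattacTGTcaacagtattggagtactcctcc
Igkv1-135: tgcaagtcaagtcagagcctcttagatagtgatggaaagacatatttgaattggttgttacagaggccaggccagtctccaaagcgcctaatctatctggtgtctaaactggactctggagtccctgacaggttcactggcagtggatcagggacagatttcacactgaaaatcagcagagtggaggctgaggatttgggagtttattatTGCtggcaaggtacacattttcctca

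Segments of 1 family resemble each other, which bears on how reads were assigned. Over the shown stretches, Ighv1-53 and Ighv1-9, both of the Ighv1 family, were 86.8% identical, while Ighv1-53 and Ighv8-5 were 53.4% identical. Of the 76 heavy members, 12 shared no window of 50 bases with another V segment and 8 shared more than 50% of their windows; the median was 21.2%. Of the 87 kappa members, 85 had a transcript in the GENCODE vM21 annotation. Of these 85, 21 shared no such window and 9 more than 50%, with a median of 24.4%. Ighv1-53 shared 57.6% of its windows, with Ighv1-72 as its nearest relative, Ighv8-5 shared 32%, and Ighv1-9 shared none. Igkv1-110 shared 50.9% and its nearest relative Igkv1-117 49.9%, at 96.8% identity over the V exon. Igkv4-57 shared 49.2%, at 94.4% identity with its nearest relative Igkv4-55, which shared 52.7%. Counts of segments with much shared sequence are uncertain, since the treatment of reads with several matches is not given in the sources used here. Heavy members did not overlap each other, but Igkv19-93 with 68285 counts overlapped a second row of the same name, annotated as a pseudogene, with 67588 counts.

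Library totals ran from 37028959 to 75942717 counts (median 47774880), and the ranges of the 3 groups overlapped. The 7 bone genes checked, among them Dmp1 and Sost of osteocytes, were all expressed, with a summed level of 3815 to 40542 CPM per mouse (CPM, counts divided by the library size after TMM scaling, as edgeR gives them). The 4 skeletal muscle genes reached 3982 to 55533 CPM summed, so muscle RNA was present in the bone libraries too. Neutrophil, erythroid and B cell genes were likewise present after centrifugation.

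The heavy V segments took a larger part of the RNA in both old groups than in the young mice. In the young mice they held 0.00928% of all counts at the lowest, 0.0209% at the median and 0.0420% at the highest. In the old + vehicle mice these values were 0.00953%, 0.0377% and 0.0947%, and in the old + AP mice 0.0204%, 0.0610% and 0.206%. Above the highest young mouse lay 5 of 13 old + vehicle mice and 11 of 16 old + AP mice; the groups overlapped. The means were 0.0235% ± 0.00998 (SD, n = 12), 0.0450% ± 0.0276 (SD, n = 13) and 0.0717% ± 0.0509 (SD, n = 16). The difference of the means was 1.02 pooled SD for old + vehicle against young, 1.23 for old + AP against young and 0.633 for old + AP against old + vehicle. These scores per mouse are descriptions and carry no test.

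The share of all counts also moves with the other RNA in a library, and the summed marker levels differed between the groups. In young, old + vehicle and old + AP mice, the bone genes had median sums of 30662, 19278 and 15977 CPM and the erythroid genes 6611, 4008 and 3704 CPM. Those of the neutrophil genes were 10404, 14584 and 15137 CPM, and those of the muscle genes 19975, 31624 and 20476 CPM. The ranges of the 3 groups overlapped for each of these lists. The part of these other cell types in the V share was not tested.

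The kappa segments followed the same order. They held 0.0452% of all counts in the median young mouse (0.0203% to 0.0857%), 0.0658% in the median old + vehicle mouse (0.0210% to 0.319%) and 0.131% in the median old + AP mouse (0.0464% to 0.462%). Above the highest young mouse lay 6 of 13 old + vehicle mice and 12 of 16 old + AP mice. The differences of the means were 0.848, 1.21 and 0.409 pooled SD for old + vehicle against young, old + AP against young and old + AP against old + vehicle. Relative to the constant regions, the heavy members gave a median of 9.79 counts per 100 immunoglobulin constant counts in young, 10.2 in old + vehicle and 11.9 in old + AP mice. The medians of this ratio lay closer together than those of the total share. With all 93 heavy segments, the 17 annotated as IG_LV_gene included, they were 12.9 in young, 12.8 in old + vehicle and 15.2 in old + AP mice, so the order of young and old + vehicle mice depended on the set of segments.

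Evenness was lower in many old mice than in any young mouse. It is the Shannon entropy of a mouse's segment counts divided by its largest possible value, and runs from 0, where a single segment holds every count, to 1, where all segments hold equal counts. For the heavy members it was 0.815, 0.844 and 0.883 in the young mice at the lowest, median and highest. It was 0.0776, 0.809 and 0.882 in the old + vehicle mice, and 0.430, 0.736 and 0.858 in the old + AP mice. Below the lowest young mouse lay 7 of 13 old + vehicle mice and 14 of 16 old + AP mice, while the other mice of both old groups lay within the young range. The group means were 0.846 ± 0.0198 (SD, n = 12), 0.746 ± 0.208 (SD, n = 13) and 0.702 ± 0.115 (SD, n = 16). Without mouse 23 of the old + vehicle group, at 0.0776, the SD of that group was 0.0558 (n = 12). The SD of both old groups was larger than that of the young mice, also without mouse 23.

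Set against that spread, the heavy evenness of old + AP mice was 1.64 pooled SD lower than that of young mice, and that of old + vehicle mice 0.663 pooled SD lower. Between the old groups the difference was -0.273 pooled SD. Mouse 23 of the old + vehicle group stood far from the others; without it, the difference was -1.06 pooled SD both for old + vehicle against young and for old + AP against old + vehicle. The effective number of segments (inverse Simpson index) averaged 26.6 ± 4.68, 19.4 ± 9.22 and 11.8 ± 7.58 (SD) in young, old + vehicle and old + AP mice.

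Kappa evenness gave a like picture. Its median was 0.853 in young mice (0.804 to 0.868), 0.758 in old + vehicle mice (0.108 to 0.870) and 0.735 in old + AP mice (0.577 to 0.865). Below the young range lay 7 of 13 old + vehicle mice and 12 of 16 old + AP mice. In pooled SD, the difference was -0.788 for old + vehicle against young, -1.74 for old + AP against young and -0.0647 for old + AP against old + vehicle. Without mouse 23 the first became -1.13 and the last -0.715.

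**Figure D1:**
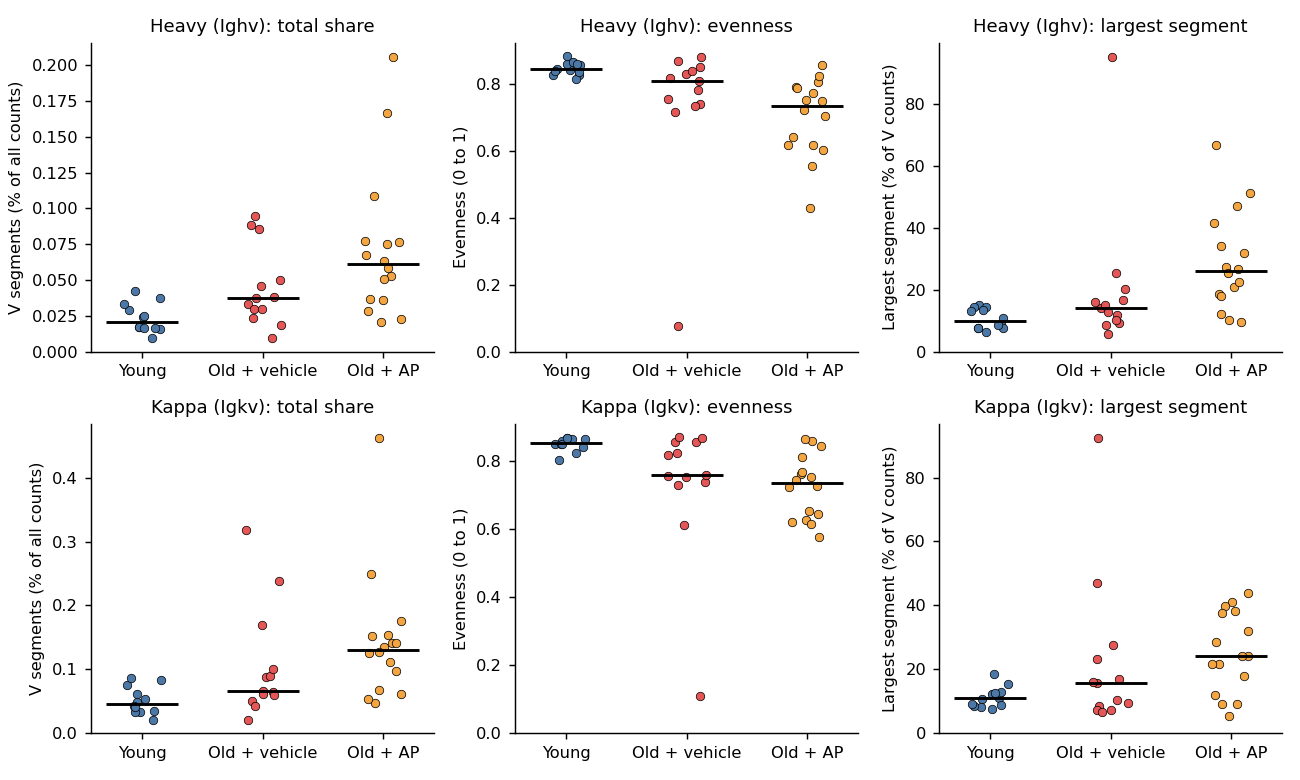
Total share of all counts (%), evenness (0 to 1) and share of the largest segment (% of V counts of the class) for heavy (upper row) and kappa (lower row) segments; each point is a mouse and the line is the group median. Heavy evenness stays above 0.81 in every young mouse and falls below the young range in 7 of 13 old + vehicle and 14 of 16 old + AP mice.

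The largest single segment held a greater part of the V counts in many, but not all, old mice. Among heavy members it held 6.50%, 9.85% and 15.1% in the young mice at the lowest, median and highest. It held 5.63%, 14.1% and 95.3% in the old + vehicle mice, and 9.46%, 25.9% and 66.9% in the old + AP mice. Above the highest young mouse lay 6 of 13 and 13 of 16 mice, and below the lowest 1 old + vehicle mouse. In pooled SD the difference of the means was 0.558 for old + vehicle against young, 1.49 for old + AP against young and 0.455 for old + AP against old + vehicle; without mouse 23 the last was 1.20 and the first 0.710. For kappa the medians were 10.8%, 15.7% and 24.1% with highest values of 18.3%, 92.5% and 44.0%, and 4 of 13 and 11 of 16 old mice exceeded every young mouse, while 3 of 13 and 1 of 16 lay below every young mouse. The 95% Clopper-Pearson interval of a largest share was at most 2.32 percentage points wide for heavy and 1.46 for kappa segments, so counting error is small beside the differences between mice. Such intervals cover counting error only.

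A difference remained without the largest segment. After removal of each mouse's own largest heavy segment, the remaining members held 0.0190%, 0.0305% and 0.0442% of all counts at the group medians, in the order young, old + vehicle, old + AP. The evenness of the remaining heavy members had medians of 0.864, 0.841 and 0.832, and 7 of 13 old + vehicle and 11 of 16 old + AP mice lay below the young range. For kappa, 7 of 13 and 12 of 16 did. Nearly every member was still present in most mice: 73 to 76 of the 76 had a count in each young mouse and 72 to 76 in each old + AP mouse, with 61 in old + vehicle mouse 23 as the lowest of all.

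The identity of the largest segment differed from mouse to mouse. In the young mice 9 different heavy segments were the largest in 12 mice, in the old + vehicle mice 12 in 13 and in the old + AP mice 13 in 16. Ighv1-9 was the largest in 7 mice, of which 2 were young, 1 old + vehicle and 4 old + AP. Ighv3-6 was the largest in 6 mice, of which 3 were young. Ighv5-17 and Ighv8-8 were the largest in 3 mice each, Ighv5-17 tied with Ighv14-4 at 518 counts in old + vehicle mouse 15. Ighv1-26, Ighv1-53 and Ighv1-55 were the largest in 2 mice each. Over all 93 heavy segments, Ighv1-81, outside the members, was the largest in 4 mice, all young, and Ighv3-6 in 4, of which 1 was young, while Ighv1-9 still led in 7.

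For kappa, the young mice shared a common leader and the old mice did not. Igkv1-110 was the largest kappa segment in 10 of 12 young mice, with 3 different leaders in that group. In the old groups the 13 old + vehicle mice had 12 different leaders and the 16 old + AP mice had 14. Igkv4-55 led in 3 mice, all old + AP, and Igkv1-117 in 3, of which 1 was young. Igkv10-96, Igkv12-44, Igkv12-46, Igkv12-89 and Igkv19-93 led in 2 mice each.

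The level of Igkv1-110 itself passed no test between groups. It was 20.0, 52.9 and 88.2 CPM in young mice at the lowest, median and highest, 2.25, 44.5 and 174 CPM in old + vehicle mice and 12.5, 55.5 and 130 CPM in old + AP mice. The groups overlapped over most of their range. Its edgeR log2 fold change was 0.01 ± 0.40 (SE) for old + vehicle against young, with an adjusted p of 0.993. Its share of the kappa counts was 10.8% ± 3.77 (SD, n = 12) in young, 5.10% ± 2.72 (SD, n = 13) in old + vehicle and 4.55% ± 1.74 (SD, n = 16) in old + AP mice. The lower share stood beside a higher kappa total in the old mice.

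In young mice the leading heavy members by mean share of the 76 members' counts were Ighv3-6 (6.2% ± 3.50, SD, n = 12), Ighv9-3 (6.04% ± 3.40) and Ighv1-9 (4.94% ± 3.62), then Ighv1-26 (4.80% ± 1.21) and Ighv1-53 (4.38% ± 0.769). These 5 did not differ beyond their spread. Over all 93 heavy segments Ighv1-81 led in more young mice than any of them. After Igkv1-110, the leading kappa segments were Igkv1-117 (6.44%), Igkv10-96 (4.25%), Igkv6-15 (3.62%) and Igkv8-30 (2.85%). By family, the 32 Ighv1 members held a median of 46.3% of the heavy counts in young, 45.9% in old + vehicle and 42.8% in old + AP mice. By position, the 38 members nearest the constant genes held 42.9%, 39.4% and 38.8%. Both shares stayed at a similar median while their ranges widened, for Ighv1 from 40.5% to 54.7% in young mice and from 24.3% to 80.4% in old + AP mice.

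**Figure D2:**
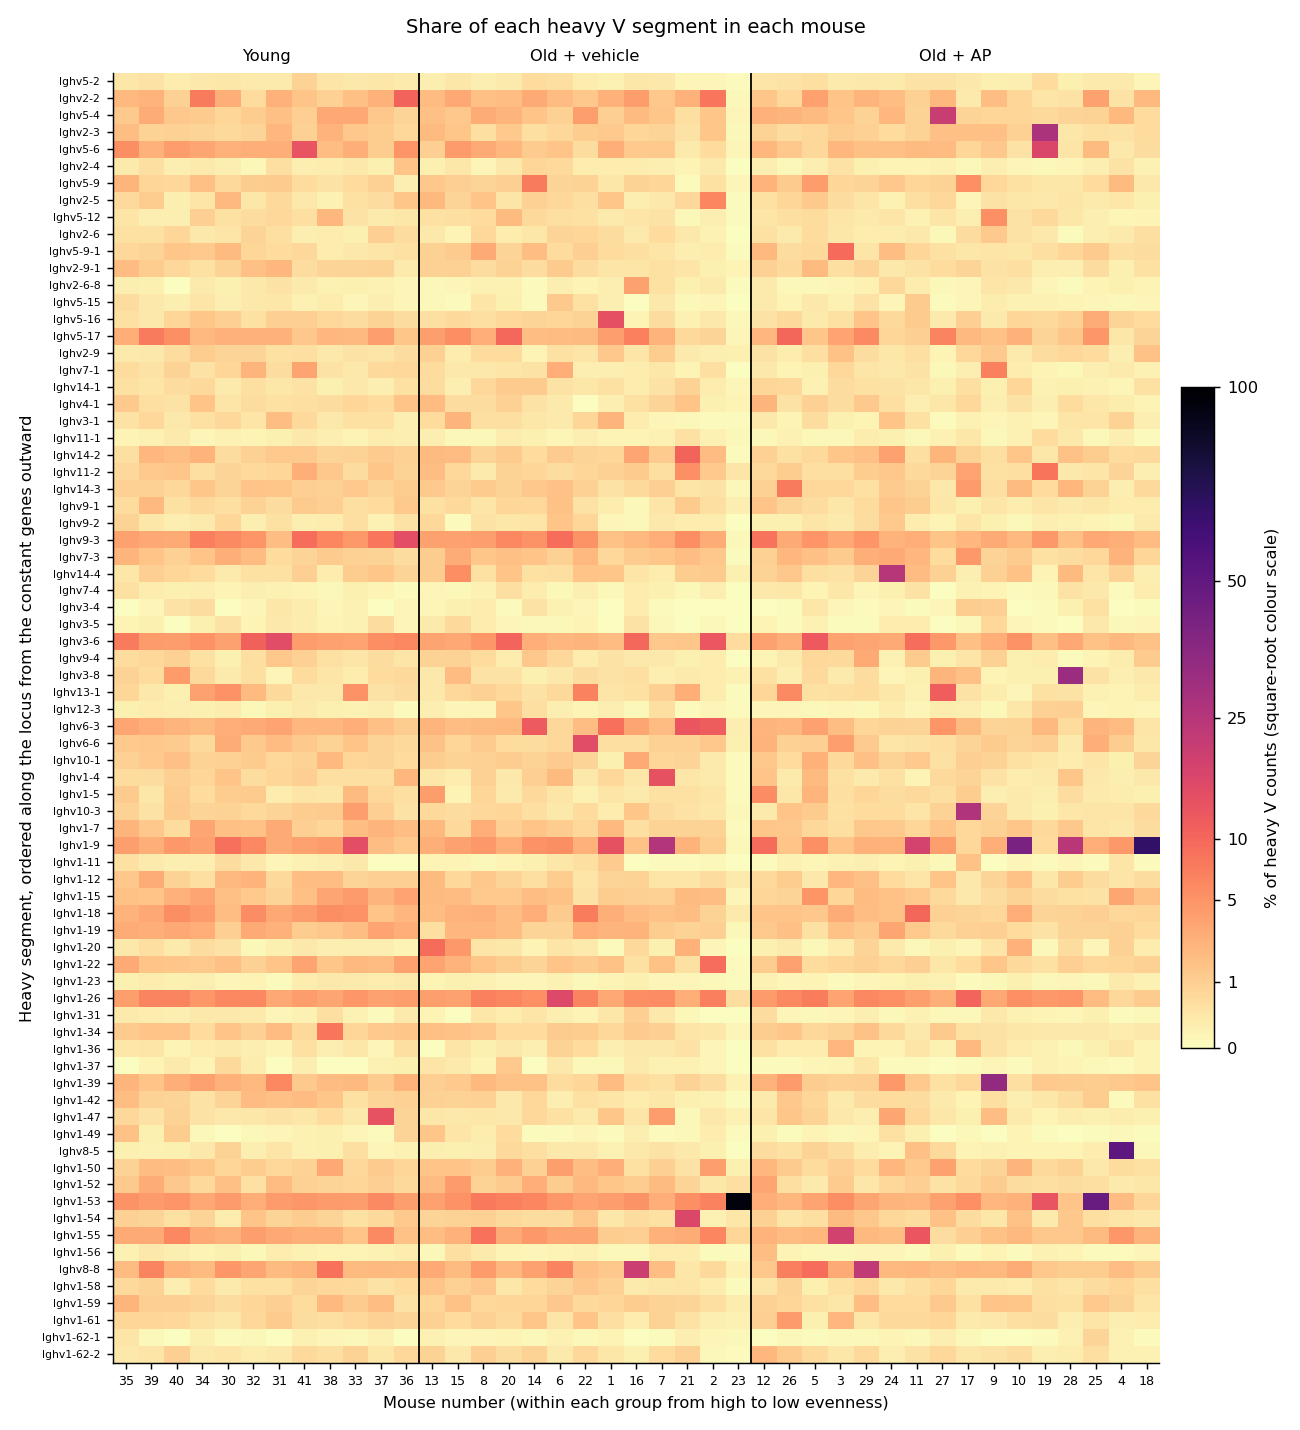
Share of each of the 76 heavy segments (rows) in each mouse (columns, grouped and ordered from high to low evenness within a group); color is the share of the mouse's heavy V counts in % on a square root scale. Young columns are pale throughout, whereas single dark cells stand out in old mice, such as Ighv1-53 at 95.3% in mouse 23 and Ighv1-9 at 66.9% in mouse 18.

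Old + vehicle mouse 23 had the lowest heavy and the lowest kappa evenness of all mice. Ighv1-53 held 24380 of its 25572 heavy counts, a share of 95.3% (95% interval 95.1% to 95.6%), and the next member, Ighv1-55, held 0.712%. Igkv4-57 held 47176 of its 51024 kappa counts, a share of 92.5% (92.2% to 92.7%), followed by Igkv4-55 with 2.52%. Of the constant region counts of its heavy chains, 97.8% were Ighm, the constant region of IgM. In young mice that share was 23.8% to 42.8%. Over all 93 heavy segments, Ighv1-53 held 88.3% (87.9% to 88.6%) in mouse 23, and the next was Ighv1-64, outside the members, with 6.09%. Its B cell marker genes summed to 134 CPM and its plasma cell marker genes to 493 CPM, against medians of 163 and 493 in its group. Its T cell genes summed to 104 CPM, the highest of its group (median 53.7), its muscle genes to 51004 CPM (median 31624) and its neutrophil genes to 18181 CPM (median 14584).

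Old + AP mice held the next lowest heavy evenness values. In mouse 18, Ighv1-9 held 104516 of 156262 heavy counts (66.9%, 66.7% to 67.1%), Igkv13-84 held 44.0% of the kappa counts and Ighm 67.9% of the heavy constant counts. In mouse 4, Ighv8-5 held 51.3% of the heavy counts (50.7% to 52.0%) and Igkv1-135 held 41% of the kappa counts. In mouse 25, Ighv1-53 held 47.1% and Igkv4-55 39.9%. Ighm was the largest heavy constant gene in all of these mice, with 88.8% in mouse 4 and 69.0% in mouse 25. The lambda counts of mouse 4 also lay mostly on a single segment, Iglv2, with 15489 of 17165 (90.2%). Mouse 28 was the fifth lowest, and its heavy counts were spread over a pair of leaders, Ighv3-8 at 31.9% and Ighv1-9 at 24.1%, with Igkv14-100 at 37.5% of kappa.

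Kappa evenness was lowest in mouse 23, then in old + AP mouse 4, old + vehicle mouse 13, old + AP mouse 28 and old + AP mouse 19. The lists of the 5 lowest mice for heavy and for kappa shared 3 mice, namely 23, 4 and 28. In mouse 13, Igkv1-117 held 47.1% of the kappa counts while the heavy members were even (evenness 0.882). Its leader lay outside the members: once the 17 heavy segments annotated as IG_LV_gene were included, Ighv1-66 held 29.5% of the heavy counts. In the same way, old + AP mouse 27 had Igkv4-55 at 38% of kappa and, with those 17 segments, Ighv1-64 at 50.5% of heavy. In mouse 19, Igkv8-30 held 21.6% of the kappa counts, and Ighv2-3 (27.5%) and Ighv5-6 (17%) led the heavy members; over all 93 heavy segments Ighv2-3 held 20.2% and Ighv1-80 was next with 17.98%. The largest heavy constant gene in mice 13, 19 and 27 was not Ighm but Ighg2b, of the IgG class, with 43.4%, 45.0% and 53.7%.

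Low evenness of the heavy members and of the kappa class met in the same mice in part. Of the 13 old + vehicle mice, 5 lay below the young range in both classes and 4 (mice 8, 14, 15 and 20) in neither. Of the 16 old + AP mice, 12 lay below in both and 2 (mice 12 and 26) in neither. With all 93 heavy segments, 7 old + vehicle mice lay below in both classes and 5 in neither, so all 7 with low kappa evenness also had low heavy evenness; the old + AP counts stayed at 12 and 2. A largest segment above the young range in both classes was found in 3 old + vehicle and 11 old + AP mice, and in 4 and 11 with all 93 heavy segments. Both classes are counted in the same library, so they share its total and its B-lineage content. Which heavy and which kappa segment come from the same cell is not measured by bulk counts.

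**Figure D3:**
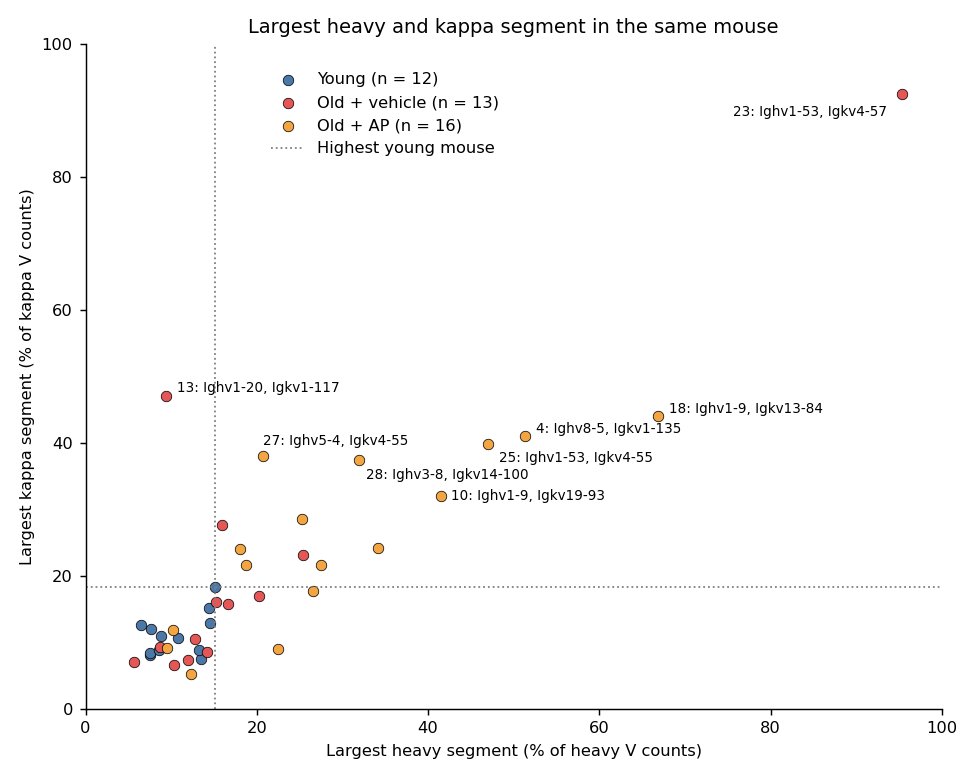
Share of the largest heavy segment (x axis, % of heavy V counts) against that of the largest kappa segment (y axis, % of kappa V counts); each point is a mouse and the dotted lines mark the highest young mouse. The upper right field holds 3 old + vehicle and 11 old + AP mice, with mouse 23 far out at 95.3% and 92.5%.

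The constant regions tell which antibody class the heavy chains belong to. Igha, of IgA, was the largest heavy constant gene in 11 of 12 young mice, and Ighm in 1. In the old + vehicle mice Ighm was the largest in 8 of 13, Igha in 3 and Ighg2b in 2, and in the old + AP mice Ighm in 11 of 16, Igha in 3 and Ighg2b in 2. The median share of Igha was 53.4%, 29.3% and 26.1%, and that of Ighm 34.3%, 38.9% and 41.8%, in young, old + vehicle and old + AP mice. The 95% interval of such a share was at most 1.02 percentage points wide.

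For single segments, 11 of the 75 heavy members that passed the filter on low counts rose in old + vehicle against young mice and none fell (a log2 fold change beyond 0.5 at an edgeR adjusted p below 0.05). That is 14.7% of the tested members, beside 4.3% of all 19292 genes that rose and 4.76% that fell under the same rule. The log2 fold change was above 0 for 67 of the 75, with a median of 0.89 beside 0.01 for all genes. Without young mouse 38 or old + vehicle mouse 14 the heavy count was 6, and without young mouse 41 or old + vehicle mouse 6 it was 7. Ighv1-62-1 did not pass the filter. Of the 85 kappa segments tested, 10 rose and none fell, with a median of 0.60; without old + vehicle mouse 13 the count was 6, and DESeq2 called 17. Igkv4-78 and Igkv4-56 did not pass the filter.

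The largest rises in old + vehicle against young mice belonged to segments that were high in 1 or a few mice. Ighv1-20 had a log2 fold change of 4.01 ± 0.98 (SE, edgeR adjusted p = 0.00312), and was 0.0665, 0.290 and 1.99 CPM in young against 0, 0.657 and 80.2 CPM in old + vehicle mice (lowest, median, highest). Ighv1-53 rose by 2.68 ± 0.71 (edgeR adjusted p = 0.00641), from 4.98, 9.53 and 14.3 CPM to 5.61, 24.7 and 533 CPM. The groups overlapped for both, and the highest mouse held 75.9% and 65.9% of the old + vehicle group's summed CPM. Without mouse 13, Ighv1-20 had an edgeR adjusted p of 0.0575, and without mouse 23, Ighv1-53 had 0.12 at a log2 fold change of 1.25. Still, 9 of 13 old + vehicle mice lay above the highest young mouse for Ighv1-53, beside 4 of 13 for Ighv1-20. Ighv1-4 (2.13), Ighv2-5 (1.95) and Ighv5-16 (1.92) rose too, and each call was lost without a single mouse, with the highest adjusted p without mouse 7 for Ighv1-4, mouse 2 for Ighv2-5 and mouse 1 for Ighv5-16.

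Ighv6-3 was the only one of the 11 heavy calls that held with every mouse left out in turn. It rose by 1.89 ± 0.55 on the log2 scale (edgeR adjusted p = 0.0119), and the highest adjusted p with 1 mouse left out was 0.049. Its level was 1.82, 6.00 and 9.39 CPM in young and 0.590, 7.94 and 99.96 CPM in old + vehicle mice, with 5 of 13 above every young mouse. Of the kappa calls, Igkv4-57 and Igkv12-89 held in all such fits, 2 of 10. Igkv4-57 rose by 4.13 ± 0.82 (edgeR adjusted p = 0.000424) with all mice, and by 1.30 (0.0324) without mouse 23, which held 87.1% of its group's CPM. Among all genes called in this comparison, 66% held in every such fit.

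The other kappa segments with the largest rises in old + vehicle against young mice were Igkv12-89 (log2 fold change 3.45), Igkv16-104 (2.35), Igkv1-117 (2.33), Igkv6-15 (1.96) and Igkv9-124 (1.73). Igkv1-117 rested on mouse 13, at 1495 CPM beside 159 CPM in the next mouse, and without it the log2 fold change was 0.53. Igkv16-104 and Igkv6-15 lost their call without mouse 6, and Igkv9-124 without mouse 13.

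In old + AP against young mice 23 of the 75 heavy members rose and none fell. That is 30.7% of the tested members, beside 3.73% of all genes that rose and 4.85% that fell. The median log2 fold change was 1.23, beside 0.02 for all genes, and 71 of the 75 lay above 0. Of the 85 kappa segments, 25 rose and none fell, with a median of 1.13. This comparison and the one above share the young mice, so their calls are not independent.

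Ighv8-5 had the largest rise among heavy members, 5.24 ± 1.14 (SE) on the log2 scale (edgeR adjusted p = 0.00138). It was 0.0602, 0.191 and 2.08 CPM in young mice and 0.105, 0.871 and 260 CPM in old + AP mice. Mouse 4 alone stood at 260 CPM, with the next mouse at 7.85 CPM. Without mouse 4 the log2 fold change was 1.83 and the edgeR adjusted p 0.0498, so the call was kept at a much smaller size. Ighv14-4 rose by 3.36 ± 0.78 (edgeR adjusted p = 0.0025) and by 1.43 without mouse 24. Ighv7-3 (1.70 ± 0.48) and Ighv7-4 (1.95 ± 0.61), both of the Ighv7 family, kept their calls as well, which makes 4 of 23.

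Ighv3-8, Ighv2-3, Ighv1-9 and Ighv12-3 were the other heavy members with the largest rises, and none of these calls held without its leading mouse. Ighv3-8 rose by 3.63 ± 0.93 with all mice and by 0.95 without mouse 28. Ighv2-3 rose by 3.49 ± 0.84 with all mice and by 0.75 without mouse 19. Ighv1-9 was 2.09, 7.57 and 48.7 CPM in young mice and 4.61, 19.6 and 1214 CPM in old + AP mice, with the highest value in mouse 18 and 161 CPM in the next mouse. It rose by 3.12 ± 0.85 (edgeR adjusted p = 0.00909) with all mice and by 1.47 (0.113) without mouse 18. Above the median young mouse lay 14 of the 16 old + AP mice for Ighv1-9, 12 for Ighv2-3 and 9 for Ighv3-8. Ighv12-3 was a low segment, with a median of 0.202 CPM in young and 0.230 CPM in old + AP mice, and its rise of 2.88 ± 0.86 lost its call without mouse 19.

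Of the 25 kappa rises, 11 held with every mouse left out, among them Igkv13-84 (4.85 ± 1.05, and 1.75 without mouse 18) and Igkv12-89 (4.17 ± 0.91, and 2.54 without mouse 3). Igkv14-100 (3.71), Igkv8-19 (3.36), Igkv5-45 (3.09) and Igkv6-20 (3.09) each lost their call without a single mouse, and Igkv14-100 fell to 0.42 without mouse 28. Igkv8-21 rose by 2.58 with all mice and had a log2 fold change of -0.29 without mouse 19, the only called segment whose sign turned. Of all genes called in this comparison, 62.7% held in every such fit.

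**Figure D4:**
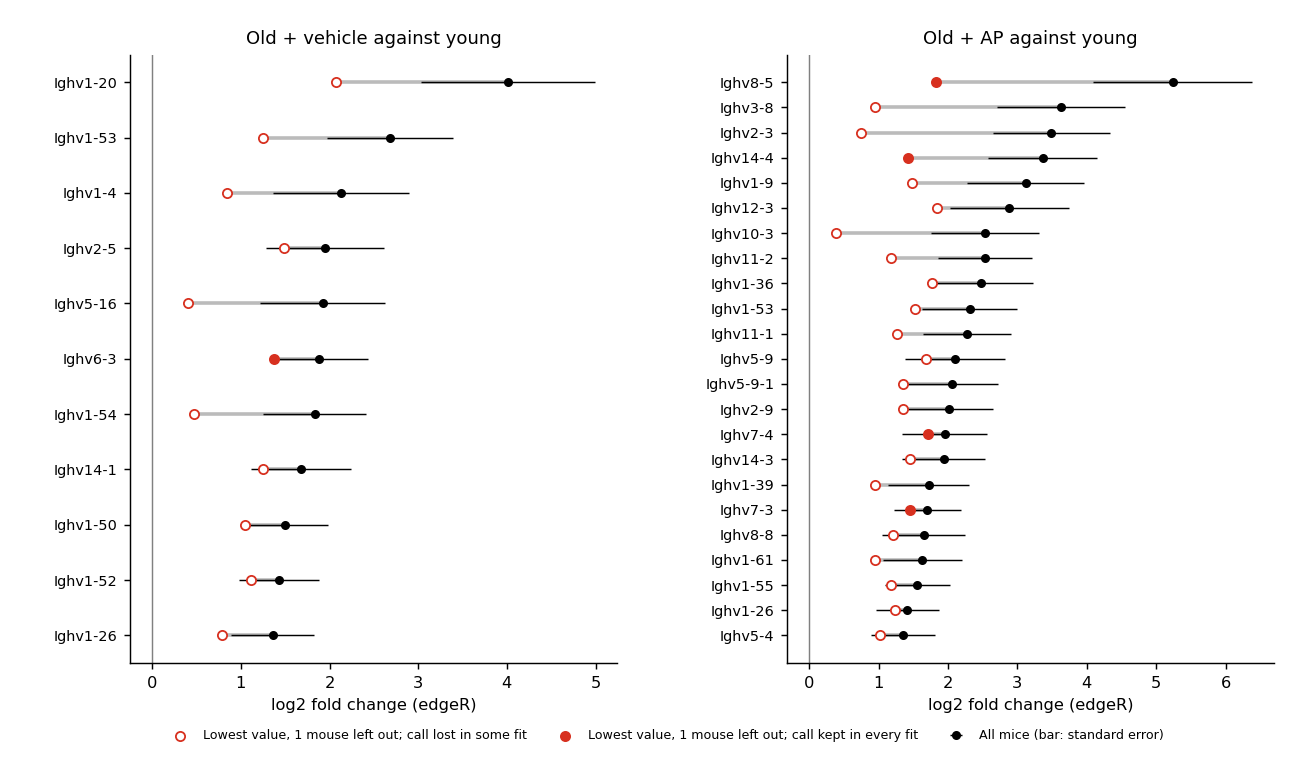
edgeR log2 fold change of the heavy segments called in old + vehicle (left) and old + AP (right) against young mice; black points with standard error bars are fits with all mice, and colored points are the lowest value with 1 mouse left out. The call held in every such fit for 1 of 11 and 4 of 23 segments, and Ighv8-5 moves from 5.24 to 1.83.

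Between old + AP and old + vehicle mice, none of the 75 heavy members passed edgeR's test after adjustment; 17 had an unadjusted p under 0.05, as had 4620 of all 19292 genes, a like share, and DESeq2 called 3. With 1 of 9 mice left out (named with the alternatives) edgeR called 2 to 5. Over all genes 0.0259% rose and 0.0467% fell in this comparison. The median log2 fold change of the heavy members was 0.35, with 50 of 75 above 0, beside -0.00366 and 49.4% above 0 for all genes. Of the kappa segments, Igkv13-84 was higher in old + AP mice by 4.57 ± 1.0 (edgeR adjusted p = 0.0477) and Igkv4-57 was lower, at -3.34 ± 0.71 (0.0432). Neither call was stable. With 1 mouse left out the number of kappa calls ran from 0 to 12 and moved by over 1.5 times in 36 of 41 fits, and it was 0 without the filter on low counts. Without mouse 18 the edgeR adjusted p of Igkv13-84 was 0.176, and without mouse 23 that of Igkv4-57 was 0.439.

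The concentration on single mice can be stated for each gene as the share of a group's summed CPM that its highest mouse holds. Its median over the heavy members was 22.5% in young, 31.6% in old + vehicle and 30.7% in old + AP mice, and over the kappa segments 21.4%, 30.04% and 27.5%. Over all 19292 genes tested it was 11.3%, 11.2% and 9.59%, and equal mice would give 8.33%, 7.69% and 6.25%. The highest mouse held over 50% for 3 heavy members in young mice and for 14 in each old group, and for 3, 8 and 21 kappa segments. Over all genes tested, 14, 53 and 73 did. Ighv8-5, at 90.9%, had the highest value of all genes in the old + AP group. The 10 immunoglobulin constant genes (8 of the heavy chain, Igkc and Iglc2), which all cells of a class share, had medians of 15.02%, 24.3% and 18.1%.

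**Figure D5:**
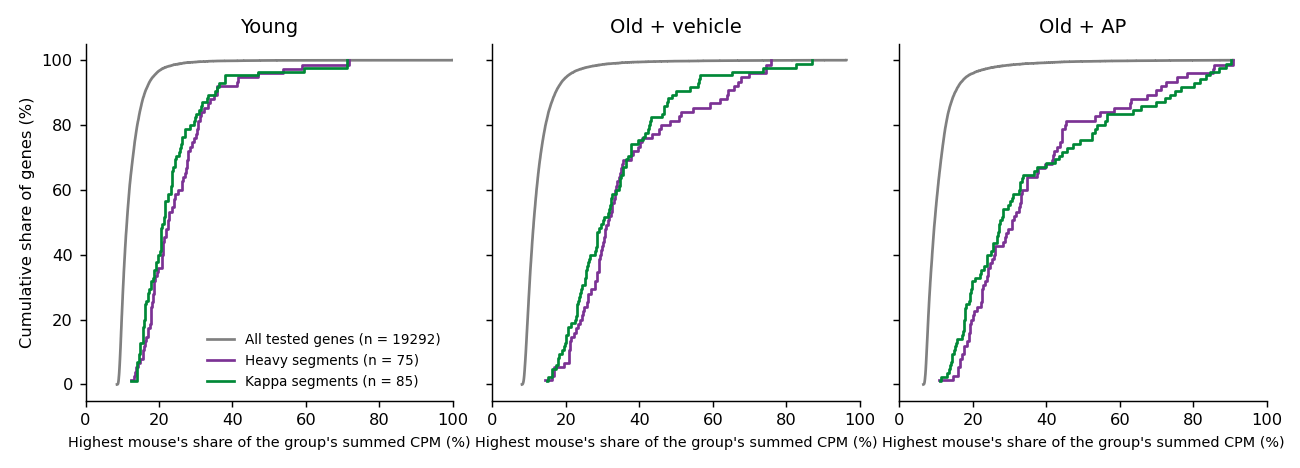
Cumulative share of genes (y axis, %) by the share of the group's summed CPM that the highest mouse holds (x axis, %), for all tested genes, heavy and kappa segments, in each group. The curves of the V segments lie to the right of that of all genes in every group, with medians of 31.6% for heavy segments and 11.2% for all genes in old + vehicle mice.

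The genes of the B lineage moved in both directions. In this and the next paragraphs a gene of a list is said to rise or fall where both limits of a call were met. Of all 19292 genes, 4.3% rose and 4.76% fell in old + vehicle against young mice. In old + AP against young mice 3.73% rose and 4.85% fell. Of 10 B cell genes, 9 fell in old + vehicle against young mice. Among them were Cr2 at -1.63 on the log2 scale, Fcer2a at -1.61, Ms4a1 at -1.12 and Fcrla at -1.03. Pax5, a transcription factor of the B lineage, was at -1.09 and Blnk at -0.58. Cd79b and Cd79a, the signalling chains of the B cell receptor, were at -0.97 and -0.86. In old + AP against young mice Cr2, Fcer2a and Pax5 fell, Pax5 losing its call in 22 of the 41 fits with 1 mouse left out. The summed level of the 10 genes had a median of 312 CPM in young mice (185 to 601). It was 163 CPM in old + vehicle (77.5 to 374) and 223 CPM in old + AP mice (113 to 430). Their part in the changes of the V segments was not tested.

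Of 12 plasma cell genes, Derl3 of protein degradation in the endoplasmic reticulum and the receptor Fcrl5 rose in both old groups against young mice. Derl3 rose by 0.89 and 1.13 and Fcrl5 by 3.54 and 4.21 on the log2 scale in old + vehicle and old + AP mice; Derl3 lost its call in old + vehicle mice without mouse 13. Fcrl5 kept its calls, at 2.73 without old + vehicle mouse 8 and at 2.78 without old + AP mouse 24, which stood at 136 CPM beside a group median of 3.71 CPM. Sdc1, which encodes the plasma cell surface protein CD138, was at 0.00 (edgeR adjusted p = 0.99) and Jchain, which links IgA and IgM into multimers, at 0.26 (0.601) for old + vehicle against young. Xbp1, also on the list, was higher than in young mice by 0.22 in both old groups, short of the fold change limit. Its edgeR adjusted p was 0.00675 in old + vehicle and 0.00457 in old + AP mice. The plasma cell list summed to a median of 489, 493 and 580 CPM, with overlapping groups.

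Of the 9 constant genes listed, 6 rose in both old groups against young mice, namely Igkc, Ighm, Ighg1, Ighg2b, Ighg2c and Ighe. Ighg2b rose by 3.20 ± 0.69 in old + vehicle mice (edgeR adjusted p = 0.000978) and by 3.02 in old + AP mice, and Ighm by 1.13 and 1.74. Without mouse 13, at 3728 CPM beside a group median of 215 CPM, Ighg2b rose by 2.48 in old + vehicle mice, and Ighg2c by 1.37 in place of 1.99. Ighm lost its call in old + vehicle mice without mouse 23 (edgeR adjusted p = 0.0534), and Ighe lost its call there without mouse 6 and in old + AP mice in 10 of the 41 fits with 1 mouse left out. Ighd, the constant region of IgD of naive B cells, fell by 1.03 in old + vehicle mice. Igha was at 0.18 and -0.06 and passed no test.

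Of the genes whose products cut and join V segments, 2 passed in old + vehicle mice. Among the 12 genes of V(D)J recombination and joining, Rag1 and Rag2, the subunits of the recombinase, fell by 1.75 ± 0.47 (edgeR adjusted p = 0.00724) and by 1.26 ± 0.42 (0.0302) against young mice, and Rag2 lost its call in 2 of the 41 fits with 1 mouse left out. Dntt, which adds bases at the joints, was at -0.37 (0.405). In old + AP against young mice none of the 12 passed; Rag1 was at -0.37 and Rag2 at -0.13. The difference between the old groups did not pass for Rag1 (1.38 ± 0.45, edgeR adjusted p = 0.0782) or for Rag2 (1.13 ± 0.40, 0.0974). Of the 10 precursor genes, which include both, Vpreb3, a gene of B cell precursors, also fell in old + vehicle mice, by 1.23.

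Of the 5 tested genes of somatic hypermutation and class switching, the nuclease Exo1 rose in old + AP against young mice, by 0.57 ± 0.19 (edgeR adjusted p = 0.0352), a call lost in 10 of the 41 fits with 1 mouse left out, and none passed in old + vehicle mice. Of the other lists, 3 of 6 T cell genes (Cd3e, Cd3g and Cd8a) and 2 of 7 neutrophil genes (Mpo and Ltf) rose in old + AP against young mice, and Cd3e and Cd8a lost their call without mouse 18. Trac, a T cell receptor constant gene outside that list, rose by 1.07 and kept its call in all 41 fits. Hemoglobin Hba-a1 fell in both old groups, Hbb-bs in old + vehicle mice, and muscle actin Acta1 rose in old + vehicle mice. Of the 7 bone genes, Sost and Mepe rose and Phex, Bglap and Ibsp fell in both old groups, and Col1a1 fell in old + AP mice. Of the 41 fits with 1 mouse left out, Acta1 lost its call in 29, Sost in 23, Ibsp in 12 and Hbb-bs in 1 in old + vehicle mice, and Ltf in 16 and Mepe in 8 in old + AP mice. None of the listed genes passed between old + AP and old + vehicle mice.

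The 3 lambda segments were analysed beside the other classes. Iglv1 held 79.3%, 77.8% and 80.0% of the lambda counts on average in young, old + vehicle and old + AP mice. In old + AP against young mice Iglv1 rose by 1.21 ± 0.39 (edgeR adjusted p = 0.0278) and Iglv2 by 2.40 ± 0.74 (0.0215), and Iglv3 was at 0.07. Without mouse 4, whose lambda counts lay mostly on Iglv2, the latter had an adjusted p of 0.419, and Iglv1 had 0.108 without mouse 17.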

How the data were processed

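RNA was sequenced on a HiSeq2000 from 41 tibia shafts, 1 library per mouse. The authors deposited a table of raw gene counts, not normalised; the submitters' processing notes name TopHat2 2.0.6, HTSeq and GRCm38. The annotation release, the use of strand and the treatment of reads with several matches are not given in the sources used here. Groups came from the sample labels, and mouse numbers are those of the labels. The members and lists were chosen with earlier results of these data known.

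Counts were tested with edgeR 4.0.16 in R 4.3.3 (filterByExpr, TMM, quasi-likelihood, all 3 groups in a single model), with Benjamini-Hochberg adjustment over 19292 genes. A call needed a log2 fold change beyond 0.5 in either direction at an adjusted p below 0.05. The model was also run on simulated counts, with the changed genes moved alike in every old + vehicle mouse. That run does not bear on calls that rest on 1 mouse. Scores per mouse were computed from raw counts; pooled SD is that within the 2 groups compared. Segments named were the 6 with the largest rise and fall among those called, the largest of 2 or more mice or of the 5 least even mice, the 5 with the highest young share, the lambda segments and those nearest the minimum; Ighv5-6, Ighv7-3, Ighv7-4, Igkv8-21, Ighv1-64, Ighv1-66, Ighv1-80, Ighv1-81, Trac and, of the other lists, the genes that lost a call were added after their values were seen. Of the lists, called genes and Rag1, Rag2, Dntt, Jchain and Sdc1 were named; a few genes of the rule are not reported here. DESeq2 1.42.0, other filters and scalings, and each mouse left out were alternatives. DESeq2 ran with its default settings, which replace outlying counts of single mice in groups as large as these.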

Additional observations from a re-analysis of the deposited data

How the results depend on the processing

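No paired analysis was possible because the mouse numbers are not shared between groups. Of the called segments, Igkv8-21 changed sign, to -0.29 without old + AP mouse 19, and some untested scores did too. Among the heavy segments, DESeq2 called 3 in old + AP against old + vehicle mice in place of 0, and among the kappa segments it called 17 in place of 10 in old + vehicle against young mice. Kappa calls between the old groups fell from 2 to 0 without the filter on low counts and with those 2 groups fitted alone. With families in place of segments, the largest heavy family differed by 0.103 pooled SD between old + AP and young mice. The largest heavy segment had differed there by 1.49. Between old + vehicle and young mice the family differed by 0.274 (-0.0568 without mouse 23), beside 0.558 for the segment. For old + AP against old + vehicle mice it differed by -0.139 (0.126 without mouse 23), beside 0.455. The largest kappa family differed by 1.36 between old + AP and young mice, beside 1.45 for the largest kappa segment. Between old + vehicle and young mice it differed by 0.524, beside 0.631. With families, kappa evenness between the old groups went from -0.0647 to 0.0270. With all 93 heavy segments, V per 100 constant counts differed by -0.0530 between old + vehicle and young mice in place of 0.320. With 1 mouse left out, heavy calls ranged from 6 to 13 in old + vehicle against young, from 0 to 5 in old + AP against old + vehicle and from 16 to 26 in old + AP against young mice; kappa calls ranged from 6 to 14, from 0 to 12 and from 19 to 29. The 6 heavy calls were reached without young mouse 38 or old + vehicle mouse 14, and the 7 without young mouse 41 or old + vehicle mouse 6. Without old + vehicle mouse 13, kappa calls in old + vehicle against young mice were 6. Between the old groups, heavy calls were 2 to 5 without young mouse 40, old + vehicle mice 2, 14, 20 or 21, or old + AP mice 9, 10, 26 or 27, and kappa calls changed by over 1.5 times in 36 of the 41 fits, with 12 without old + AP mouse 9. The cause was not tested.

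Without mouse 23, an alternative chosen after seeing the data, heavy evenness differed by -1.06 pooled SD in both comparisons with old + vehicle mice and kappa evenness by -1.13 against young and -0.715 for old + AP against old + vehicle. The largest heavy segment differed by 0.710 and 1.20, the largest kappa segment by 0.595 and 0.735, the heavy total by 0.977 and 0.631 and the kappa total by 0.836 and 0.397. DESeq2 made no call for Ighv1-4 (log2 fold change 0.80) and Igkv1-117 (0.50) in old + vehicle against young, nor for Ighv3-8 (0.90), Ighv2-3 (0.75), Ighv1-9 (1.44), Igkv14-100 (0.41), Igkv8-19 (0.74), Igkv5-45 (0.57) and Igkv6-20 (1.16) in old + AP against young mice, nor for Igkv13-84 (1.44) and Igkv4-57 (-0.47) between the old groups. As DESeq2 replaces outlying counts of single mice by default, its fold changes need not come from the same counts as those of edgeR. Depth was ample for leading segments. Members with few counts, such as Ighv7-4, rest on little.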
